A study of Mus musculus with 2 samples.

Results

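The peaks described here are those of a YTHDF2 RNA immunoprecipitation (RIP) that carried a high signal but that the authors' table of peak genes does not list. Peaks were chosen by pileup: a peak was taken when its name was absent from that table and its pileup, the stacked signal at its summit, was 45 or more, which is 50 or more scaled RIP fragments. This left 1134 of 9271 peaks, and 1134 of the 7730 peaks absent from the table. The other 6596 absent peaks, of lower pileup, serve as the comparison. Pileup chose the peaks, so pileup, fold enrichment and q-value are given as descriptions, with no test.

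The study asked where YTHDF2 binds in C2C12 myotubes. C2C12 is an established mouse myoblast line, here labelled wild-type and not treated further, which was kept for 4 to 5 days in 2% horse serum until multinucleated myotubes had formed. The groups are 1 YTHDF2 RIP library and 1 input library of such cells, both of batch 1 and read as paired ends of 150 bp. An IgG control is not analysed here. There are no replicates, so each peak has a single pileup from the RIP and a single background from the input, and no spread between cultures can be given.

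YTHDF2 is a cytoplasmic reader of N6-methyladenosine (m6A), the most common internal mark of messenger RNA, and it brings marked transcripts to the deadenylation and decay machinery. The mark is laid down on the growing transcript in the nucleus, mostly within a short consensus of which GGACT is the best known form, and it clusters near stop codons and in long exons. Introns are spliced out and mostly degraded in the nucleus, and processed pseudogenes are copies of spliced messenger RNA that were inserted back into the genome.

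Of the 1541 peaks in the gene table, 1500 lay over exons of protein-coding transcripts in the GENCODE annotation (release 21 for mouse, genome build mm10), and 0 lay in introns. The absent peaks are therefore largely peaks elsewhere. The 6 windows below are extremes of the high-pileup absent peaks, not typical ones. They show 200 bases of the reference genome around the summit, 5′ to 3′ on the strand of the gene. They are the leading peaks by pileup in introns, over exons and between genes, and the leading peak by fold enrichment. Capitals mark, on the strand shown only, GGACT, runs of TGTGTGTG and, in the Bcas3 window, its most repeated word, CTGTGC.
Runx1: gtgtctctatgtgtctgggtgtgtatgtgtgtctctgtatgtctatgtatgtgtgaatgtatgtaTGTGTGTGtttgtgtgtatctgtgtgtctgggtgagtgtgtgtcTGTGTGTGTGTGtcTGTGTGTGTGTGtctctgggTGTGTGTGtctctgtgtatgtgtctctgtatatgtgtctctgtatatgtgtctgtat
Brinp3: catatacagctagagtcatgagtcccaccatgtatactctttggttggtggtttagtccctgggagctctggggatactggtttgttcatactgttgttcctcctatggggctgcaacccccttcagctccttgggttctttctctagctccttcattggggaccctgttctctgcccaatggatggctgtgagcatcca
Gm13340: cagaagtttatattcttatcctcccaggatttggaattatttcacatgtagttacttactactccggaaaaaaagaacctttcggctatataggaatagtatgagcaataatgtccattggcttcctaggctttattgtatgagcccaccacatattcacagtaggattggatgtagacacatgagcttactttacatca
Gm28437: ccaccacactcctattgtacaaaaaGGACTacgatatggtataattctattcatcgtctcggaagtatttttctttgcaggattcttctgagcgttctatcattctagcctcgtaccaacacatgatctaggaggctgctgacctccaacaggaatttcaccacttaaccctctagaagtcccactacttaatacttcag
near Gprin3: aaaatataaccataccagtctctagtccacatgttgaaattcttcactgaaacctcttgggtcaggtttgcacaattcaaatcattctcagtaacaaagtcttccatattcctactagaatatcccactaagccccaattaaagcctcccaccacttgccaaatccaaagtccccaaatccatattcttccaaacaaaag
Bcas3: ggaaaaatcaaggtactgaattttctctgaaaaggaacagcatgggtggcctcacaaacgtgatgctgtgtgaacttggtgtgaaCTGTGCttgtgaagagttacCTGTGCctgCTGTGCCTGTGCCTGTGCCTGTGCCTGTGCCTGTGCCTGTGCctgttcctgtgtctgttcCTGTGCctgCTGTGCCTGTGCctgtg

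The Runx1 window, chr16:92807191-92807390 on the minus strand, is made of TG repeats and all of its bases are repeat-masked. The Brinp3 window, chr1:146546206-146546405 on the plus strand, is also masked throughout but holds none of the marked words on the strand shown. The Gm13340 and Gm28437 windows, chr2:22588727-22588926 and chr1:24613566-24613765, both on the minus strand, are mitochondrial in origin, and the second holds a GGACT. The Bcas3 window, chr11:85673898-85674097 on the plus strand, holds 12 copies of CTGTGC. The window near Gprin3, chr6:59342866-59343065, lies in no annotated gene and is shown on the plus strand. AGTCC, the complement of GGACT, is not marked, and it occurs in the Brinp3, Gm28437 and Gprin3 windows. Over all 9271 peaks, windows of the same length held GGACT on either strand in 26.2%, TGTGTGTG or its complement CACACACA in 9.19%, and CTGTGC on either strand in 11.2%. On the gene strand alone, for peaks in genes, the shares were 15.7% for GGACT, 8.03% for TGTGTGTG and 7.51% for CTGTGC. A match describes the letters of a window and is not a binding site.

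The high-pileup absent peaks had between 50 and 349 scaled fragments, with a median of 63. The lower-pileup absent peaks had between 8 and 49, with a median of 24. The input background was high under the same peaks, with a median of 16 scaled pileup units against 3.98 under the lower-pileup peaks and 15.0 under the peaks of the gene table. Fold enrichment, the authors' ratio of RIP signal over local input, had a median of 3.55, below the 4.79 of the lower-pileup peaks and above the 3.25 of the gene table. A fold of 4 or more was reached by 403 of the 1134 peaks, 35.5% (Wilson 95% interval 32.8 to 38.4), where 59.6% of all peaks reached it. A q-value of 1e-05 or less was reached by 1012, 89.2% (87.3 to 90.9), where 71.5% of all peaks did. Over all 9271 peaks, 21.6% had the pileup of 45 or more that the choice used. All intervals given here cover counting error only, and the depth of either library is unknown.

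**Figure D1:**
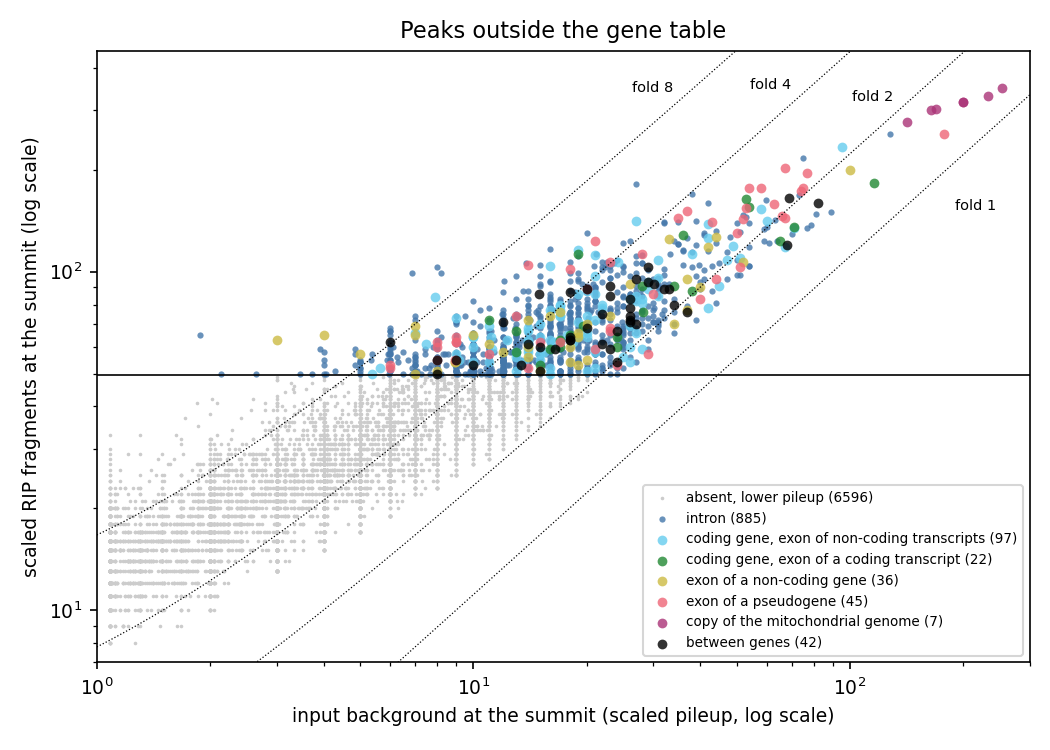
Scaled RIP fragments at the summit (vertical axis, log scale) against the input background (horizontal axis, log scale) for the peaks outside the gene table; each point is 1 peak, colours give the placement of those of pileup 45 or more, the solid line is the pileup threshold and dotted lines mark equal fold enrichment. The 7 mitochondrial copies sit at the upper right, with 277 to 349 fragments over backgrounds of 142 to 253, and the peaks of highest fold lie at the left end of the band just above the threshold.

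The threshold cuts through a dense range. At 50 fragments stood 62 peaks, with a median fold of 4.17, and at 49 fragments, just outside, stood 63 peaks with a median fold of 4.10. Just inside were peaks in introns of the lipid droplet hydrolase gene Ldah (12.6) and of the kinase gene Jak2 (10.3). Just outside were the zinc finger gene Zfp182 (11.3), the scaffold gene Tanc2 (9.02) and Ranbp3l (9.02). Folds on both sides of the threshold overlap.

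Most of the high-pileup absent peaks lay in introns, but less often than those of lower pileup. Introns held 885 of 1134, 78.0% (75.5 to 80.4), against 5872 of 6596, 89.0% (88.2 to 89.8). Exons held 207, 18.3% (16.1 to 20.6), against 511, 7.75% (7.13 to 8.42). The space between genes held 42, 3.70% (2.75 to 4.97), against 213, 3.23% (2.83 to 3.68). The exon share rose along the pileup within the set as well, from 11.0% of 444 peaks with 50 to 59 fragments, through 17.8% of 410 with 60 to 79 and 22.8% of 197 with 80 to 119, to 48.2% of 83 with 120 or more. Of the 40 exon peaks in that last range, 24 were the mitochondrial copies and pseudogenes described next, which were 28.9% of the range and 2.03%, 2.44% and 4.57% of the lower ranges.

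**Figure D2:**
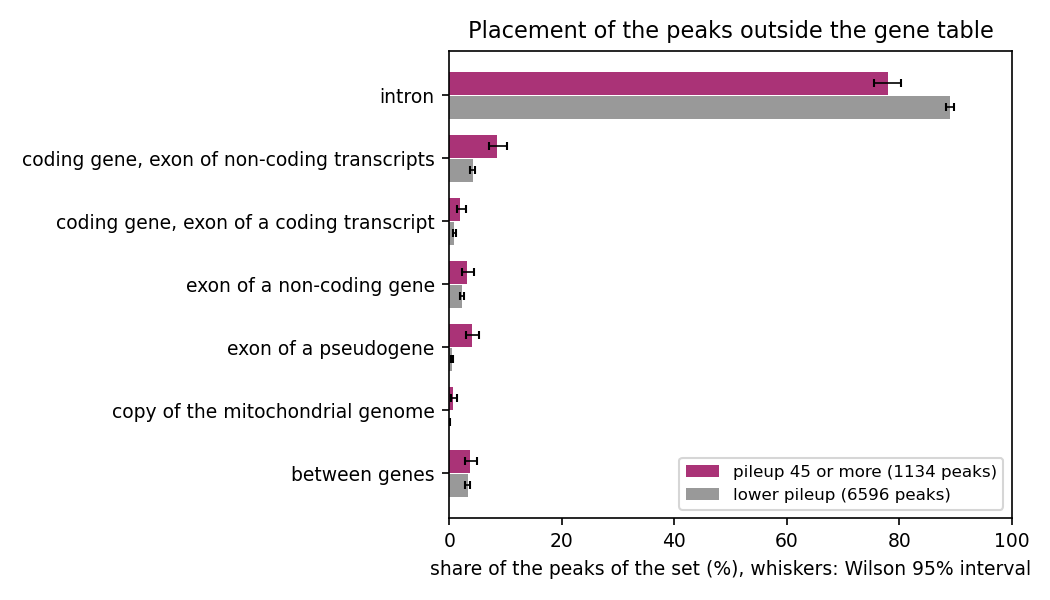
Share of peaks in each placement (horizontal axis, percent of the set) for the 1134 absent peaks of pileup 45 or more and the 6596 of lower pileup; bars are shares and whiskers Wilson 95% intervals. Introns take 78.0% and 89.0% of the sets, while exons of pseudogenes take 3.97% and 0.455%.

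The 7 peaks of highest pileup were nuclear copies of the mitochondrial genome. All 7 matched it over at least 90% of their length, 5 of them at 100% identity, and 0 of the 6596 lower-pileup absent peaks did. The list holds 0 peaks on the mitochondrial genome itself. Gm13340 on chromosome 2 carried a peak at chr2:22588608-22588827 with 349 fragments over a background of 253 and a fold of 1.24 (exact Poisson 95% interval 1.11 to 1.38), 97.3% identical to COX1, the catalytic subunit of cytochrome c oxidase. Its other peak, at chr2:22589244-22589489, had 317 fragments over 199, a fold of 1.43 (1.28 to 1.60), and was 98.8% identical to COX1. The remaining 5 lay side by side on chromosome 1. Gm28437, identical to the oxidase subunit gene COX3, had 331 fragments over 233, a fold of 1.28 (1.14 to 1.42). Gm10925, identical to the ATP synthase genes ATP8 and ATP6, had 318 fragments and a fold of 1.43 (1.28 to 1.59). Gm29216 (COX1), Gm28439 (the complex I genes ND4L and ND4) and Gm28661 (COX2) had 302, 300 and 277 fragments and folds of 1.60, 1.64 and 1.75. These peaks thus joined the highest signals of the list to some of its lowest folds. No source used here tells how reads that match more than 1 place were handled, and its part in these peaks was not tested.

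Pseudogenes followed. Of the 75 absent peaks over pseudogene exons, 45 had a pileup of 45 or more, 60% (48.7 to 70.3), where 14.7% of all absent peaks did. All 45 lay in different pseudogenes, 43 of them processed, and all 45 matched a transcript of a protein-coding gene elsewhere. A match needed at least 90% identity over at least 50% of the peak. The median identity was 99%, with a lowest of 90.2% and a highest of 100%. Of the 30 lower-pileup pseudogene peaks, 17 matched one. The match was at 99% or more in 23 of the 45 and perfect in 10.

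Ribosomal protein genes were the parents of 7 of these pseudogenes. Rpl10a-ps1, at chr1:64994033-64994390 and identical to Rpl10a, had 256 fragments over a background of 178, a fold of 1.29 (1.14 to 1.46). Rpl36a-ps2, identical to Rpl36a, had 203 fragments over 67, a fold of 2.70 (2.34 to 3.10). Gm13461, identical to the nuclear transport GTPase gene Ran, had 196 over 77, a fold of 2.27 (1.97 to 2.61). Copies of the ribosomal genes Rps3 (Gm8130) and Rpl23 (Gm9794) and of the elongation factor gene Eef1b2 (Gm43712) had 177 fragments each, with folds of 2.72, 2.11 and 2.91. The highest folds in the group were 6.96 (5.25 to 9.06) for Gm15428, a copy of the replication factor gene Pclaf, and 6.83 (5.14 to 8.91) for Gm9392, a copy of the small GTPase gene Rap1a. Of the 45 parents, 9 are in the gene table, among them Rpl23, Ptges3 and Pclaf, and of the 17 parents of lower-pileup pseudogene peaks, 5 are. A fragment cannot be told apart from its parent where the match is perfect, and the part of reads from the parents was not tested.

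Copies elsewhere in the genome were otherwise rarely found. The search needed an exact run of 64 bases, so copies with scattered mismatches, as in repeats, could be missed. At 95% identity over 80% of the peak, 28 of the 1134 peaks had another copy, 2.47% (1.71 to 3.55), against 116 of 6596, 1.76% (1.47 to 2.11). Of the 28, 11 were pseudogenes and 7 the mitochondrial copies. In introns 8 of 885 peaks had such a copy, 0.904% (0.459 to 1.77).

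Exons of genes that make non-coding RNA held 36 of the peaks. The highest was in Tug1, a long non-coding RNA needed for male fertility, at chr11:3648350-3648541, with 200 fragments over a background of 100, a fold of 1.79 (1.55 to 2.06). Dnm3os, the host of a microRNA cluster opposite Dnm3, carried 4 peaks, with 127, 118, 92 and 74 fragments and folds of 2.56, 2.49, 3.10 and 3.98. The microRNA host gene Mir22hg had 125 fragments and a fold of 3.34 (2.78 to 3.97). The highest fold of the group was in Mir99ahg, which hosts a microRNA cluster of the let-7 and miR-99 kind, with 63 fragments over a background of 3 and a fold of 14.4 (11.1 to 18.4). D430013B06Rik followed with 65 fragments over 4, a fold of 11.9 (9.23 to 15.1). Gas5, the host of a set of small nucleolar RNAs, stood at 3.02 (2.35 to 3.83) and the p53-regulated Lncpint at 4.66 (3.58 to 5.96) and 1.85 (1.47 to 2.31).

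Exons of protein-coding genes held 119 of the peaks, and 97 of them touched only exons of transcripts annotated as non-coding. Retained-intron transcripts, in which a stretch that other transcripts splice out is kept, were touched by 85 of the 119, 71.4% (62.7 to 78.8), and by 239 of the 330 such lower-pileup peaks, 72.4% (67.4 to 77.0). These intervals overlap, while exons of protein-coding genes as a whole took 10.5% (8.84 to 12.4) of the high-pileup peaks and 5.00% (4.50 to 5.56) of the lower.

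Rsrp1, an arginine and serine rich protein gene, had 233 fragments over 95 at chr4:134926136-134926554, a fold of 2.19 (1.92 to 2.49). The matrix gene Fn1, which encodes fibronectin, had 153 fragments and 2.35 (2.00 to 2.75), and the collagen gene Col3a1 had 138 and 2.91 (2.45 to 3.44). The splicing regulator Srek1 had 141 fragments and 4.57 (3.85 to 5.38), and Hnrnpa2b1 had 141 and 2.10 (1.77 to 2.47). Mdm4, an inhibitor of p53, had 135 and 1.70 (1.43 to 2.01). Hmga2, a chromatin protein of embryonic cells, had 126 and 2.66 (2.22 to 3.16). Pik3r1, the regulatory subunit of PI3 kinase, stood out by fold, with 116 fragments over 19 and 5.27 (4.36 to 6.31). Nfat5, the transcription factor of the osmotic stress response, had 84 fragments over 7.92 in a retained-intron exon, a fold of 8.58 (6.87 to 10.6).

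The other 22 touched an exon of a coding transcript in GENCODE although the authors' table does not list them, and 7 of the 119 touched coding sequence. Rbbp6, a ubiquitin ligase that takes part in 3′ end formation, had 183 fragments over 116, a fold of 1.42 (1.22 to 1.64). Steap2, a metalloreductase gene, had 164 over 53 and 2.75 (2.35 to 3.20), and the protocadherin gene Pcdh19 had 155 over 54 and 2.55 (2.17 to 2.99). The zinc finger gene Zfp329 had the highest fold of these, 5.48 (4.31 to 6.88), with 72 fragments. RefSeq exons were touched by 99 of the 207 high-pileup exon peaks, 47.8% (41.1 to 54.6), and by 123 of the 511 lower ones, 24.1% (20.6 to 28).

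**Figure D3:**
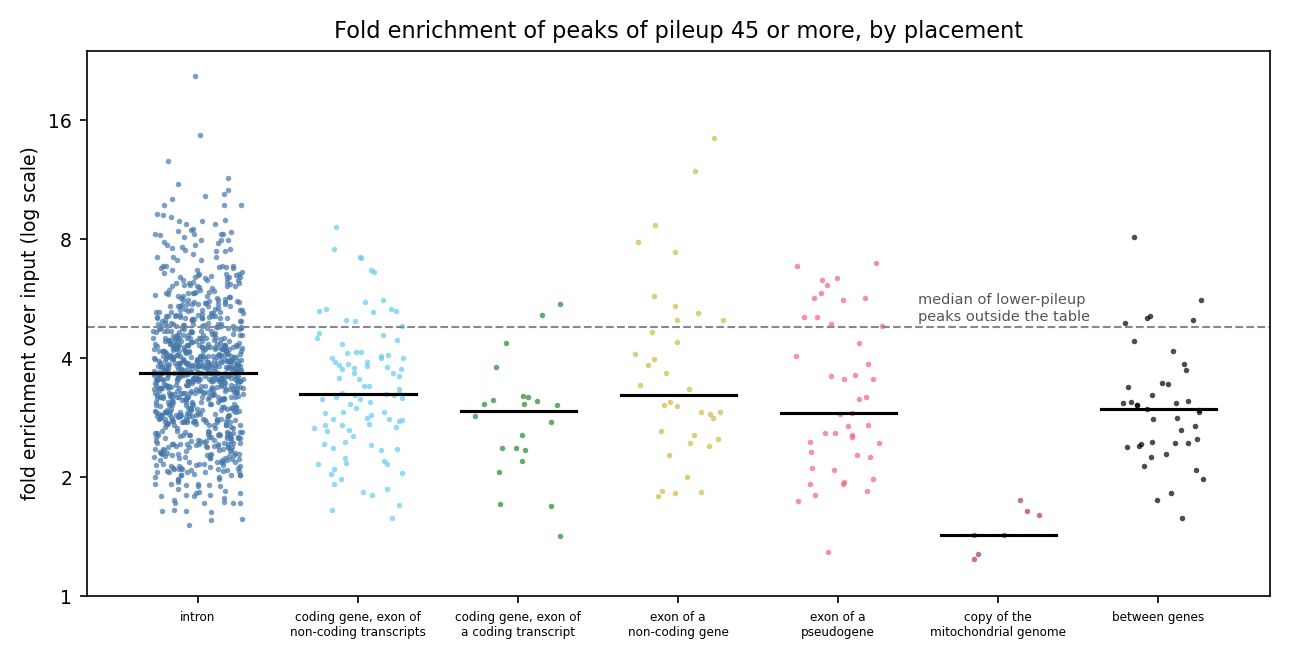
Fold enrichment over input (vertical axis, log scale) of each absent peak of pileup 45 or more by placement (horizontal axis); points are peaks, thick lines are medians and the dashed line is the median of the lower-pileup absent peaks, 4.79. Medians run from 3.67 in introns to 1.43 in the mitochondrial copies, and all lie under the dashed line.

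The highest fold of the set was in an intron. Bcas3, which encodes a cytoskeletal regulator of cell migration, had 65 fragments over a background of 1.88 at chr11:85673641-85674122, a fold of 20.7 (16 to 26.3), and its window with the CTGTGC repeat is printed above. The Ldah peak named above stood at 12.6, between the non-coding exon peaks of Mir99ahg and D430013B06Rik. Celf2, a regulator of splicing in muscle and brain, had 99 fragments over 6.88 and a fold of 11.4. Cul3, the scaffold of a ubiquitin ligase, stood at 11.0 and Fndc3a at 10.6. By q-value the leading peaks were in Brinp3 (−log10 q of 62.4), Celf2 (58.1), Bcas3 (57.3), Brinp3 again (56.2) and the splicing factor gene Rbm25 (52.4).

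By pileup the intron peaks looked different. Runx1, a transcription factor of blood formation, had 256 fragments over a background of 128 at chr16:92806530-92807474, a fold of 1.79 (1.58 to 2.03). All of its bases are repeat-masked, and its summit is the TG repeat shown above. Rbfox2, a splicing regulator of muscle, had 150 fragments over 89, a fold of 1.51 (1.28 to 1.77). Ghr, the growth hormone receptor, had 148 over 81 and 1.64 (1.39 to 1.92). Vmp1, an autophagy gene, had 147 over 52 and 2.52 (2.13 to 2.95). High pileup and high fold were thus reached by different intron peaks, with Celf2 and 1 peak of Brinp3 (103 fragments, fold 10.4) among those that had more of both.

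The 885 intron peaks lay in 594 introns, of which 112 held at least 2 and 52 at least 3. They lay nearer the start of the gene than those of lower pileup. The summit of 586, 66.2% (63.0 to 69.3), was closer to the gene's start than to its end, against 3360 of 5872, 57.2% (56.0 to 58.5). Without Brinp3 the shares were 64.6% (61.2 to 67.9) and 57.4% (56.1 to 58.7). These intervals count each peak as independent, although many peaks shared a gene or an intron. The first intron held 20.7% (18.1 to 23.5) against 17.1% (16.2 to 18.1). Introns of over 10 kb held 62.0% (58.8 to 65.2) against 58.5% (57.3 to 59.8), but 57.0% (53.5 to 60.5) without Brinp3, so that difference turned with 1 gene. Within 500 bp of an exon lay 12.1% (10.1 to 14.4) against 11.6% (10.9 to 12.5), which overlap.

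The peaks with a host lay in 578 genes, 487 of them protein-coding, which is 2.21% of the 21992 protein-coding genes annotated. A single peak was found in 405 of the genes, and 34 genes with 5 or more held 334 of the peaks. Of the 578 hosts, 145 are also in the gene table, 25.1% (21.7 to 28.8), against 496 of the 2481 hosts of lower-pileup peaks, 20.0% (18.5 to 21.6). Hosts of high-pileup peaks often held lower ones as well, in 361 of 578 genes. Within 10 kb of another peak of the set lay 45.6% (42.7 to 48.5) of the peaks, and without Brinp3 40.2% (37.3 to 43.3). This share was not taken for the lower-pileup peaks, so it is not shown to be particular to the set.

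**Figure D4:**
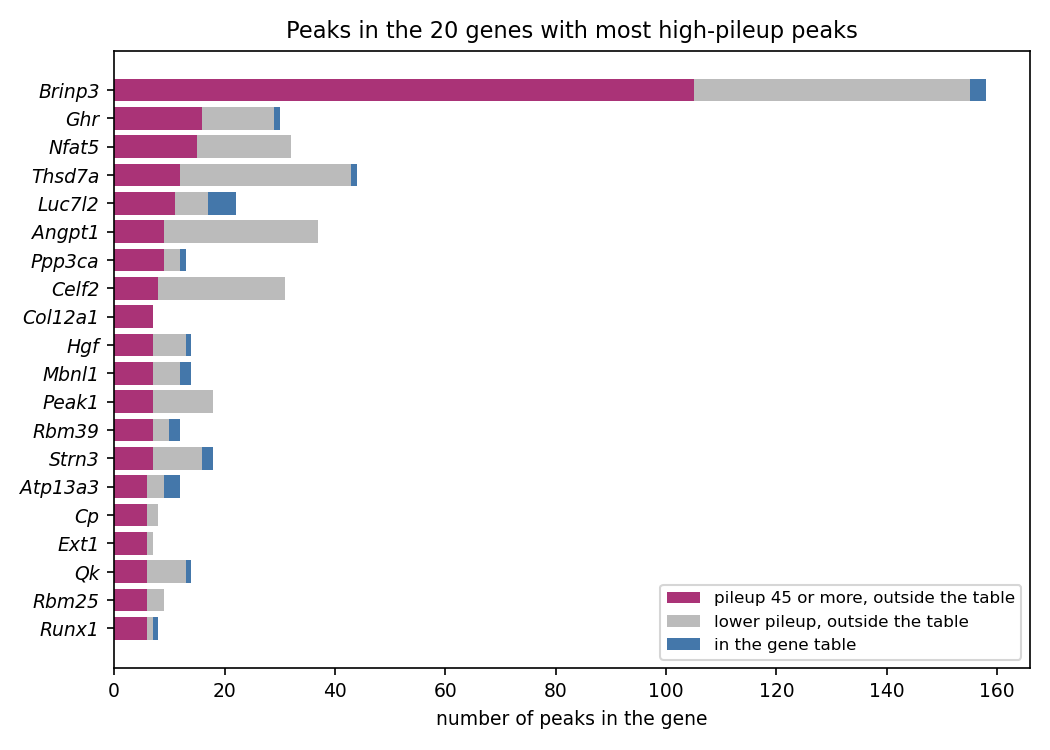
Number of peaks (horizontal axis) in the 20 genes with most absent peaks of pileup 45 or more, split into those peaks, absent peaks of lower pileup and peaks of the gene table. Brinp3 holds 105, 50 and 3, and Ghr, next, holds 16 of the high-pileup peaks.

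Brinp3, a gene best known from the nervous system, where its family of secreted proteins is induced by bone morphogenetic protein and retinoic acid, held 105 of the 1134 peaks, 9.26%. It spans 408 kb of chromosome 1, and 103 of the 105 lay in its introns. They had 50 to 217 fragments with a median of 78, and folds of 1.72 to 10.4 with a median of 3.55, the same to 3 digits as that of the whole set. The 50 lower-pileup peaks of the gene had a median fold of 4.19. Of the 105 high-pileup peaks, intron 5, of 118045 bp, held 45, and intron 4, of 46910 bp, held 29. The highest peak, at chr1:146546169-146546735, had 217 fragments over 75, a fold of 2.58 (2.25 to 2.95). The peak of smallest q-value, at chr1:146539902-146540188, had 182 over 27 and 5.89 (5.07 to 6.80). Only 22 of the 105 summits lay past the gene's midpoint, against 33 of the 50 of lower pileup. Of 11 neuronal marker genes, 0 held a high-pileup absent peak, 1 held a lower one and 0 are in the gene table. Of all protein-coding genes 2.21% held a high-pileup absent peak, so 0 of 11 tells nothing about neuronal genes.

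**Figure D5:**
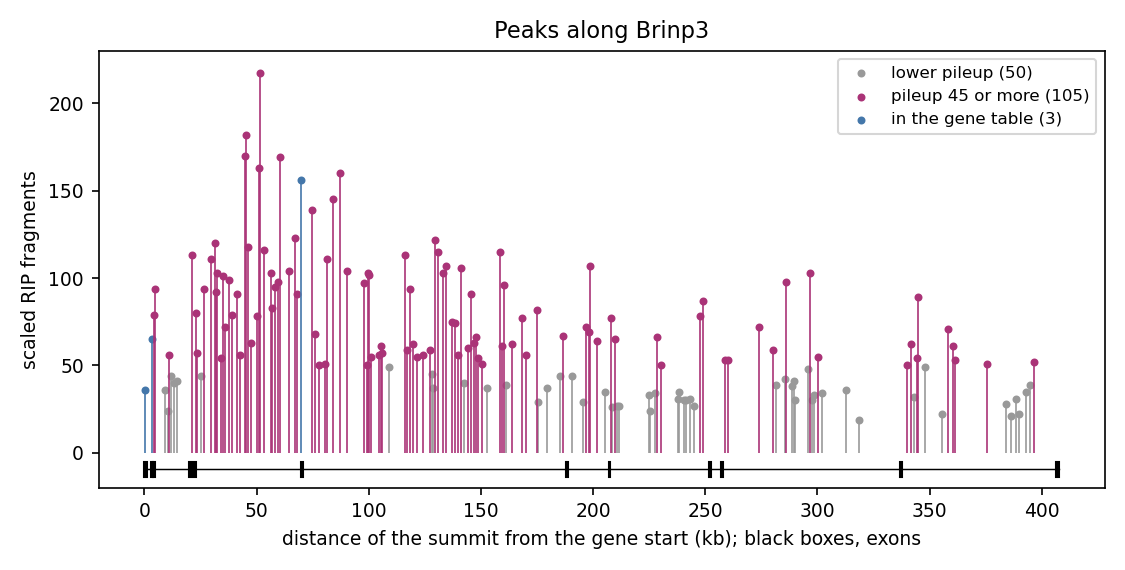
Scaled RIP fragments (vertical axis) at each peak summit along Brinp3 against the distance from the gene start (horizontal axis, kb); stems are single peaks coloured by set and black boxes are exons. The 105 high-pileup peaks run from 4.38 to 397 kb and the tallest, with 217 fragments, lies in intron 4.

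Ghr came next, with 16 peaks of 51 to 148 fragments. Nfat5 had 15 peaks of 50 to 88 fragments and a median fold of 4.54. Thsd7a, a membrane protein of endothelial migration, had 12 with up to 139 fragments, of which 11 lay in its long first intron. Luc7l2, a component of the U1 splicing complex, had 11 with a median of 87 fragments and also 5 peaks in the gene table. The angiopoietin gene Angpt1 and Ppp3ca, the catalytic subunit of calcineurin, had 9 each. Celf2 had 8, and the collagen gene Col12a1 and the growth factor gene Hgf had 7 each. Among the 34 genes with 5 or more of the peaks, the order per length of gene was different: Brinp3 had 25.8 peaks per 100 kb, the p53 ligase gene Mdm2 22.8, the splicing factor gene Rbm39 21.2, Luc7l2 18.9 and Nfat5 17.4. Short genes with fewer peaks had more per length than Brinp3, such as Dnm3os with 4 in 7928 bp and Ube2b, a ubiquitin-conjugating enzyme gene, with 4 in 15266 bp.

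Between genes, high-pileup peaks lay more often just past the end of a protein-coding gene. Of the 42, 19 lay within 5 kb downstream of one, 45.2% (31.2 to 60.1), against 47 of 213, 22.1% (17.0 to 28.1). Within 5 kb upstream lay 3, 7.14% (2.46 to 19), against 18, 8.45% (5.41 to 13.0). RefSeq places an exon under 11 of the 42, 26.2% (15.3 to 41.1), and under 34 of 213, 16% (11.7 to 21.5). These intervals count each peak as independent, although several peaks of both sets lay near the same gene. The pair of highest peaks lay 3863 and 320 bp past the end of Gprin3, a gene of neurite growth, with 165 and 160 fragments over 69 and 82 and folds of 2.14 (1.82 to 2.49) and 1.75 (1.49 to 2.04). A peak 39 bp before the start of Rapgef2, an activator of Rap GTPases, had 120 fragments and 1.58 (1.31 to 1.89). One 201 bp past Uprt had 103 and 3.12 (2.56 to 3.78). One 1302 bp past Srl, which encodes a calcium-binding protein of the muscle reticulum, had 95 and 3.08 (2.50 to 3.76). The highest fold between genes, 8.11 (6.25 to 10.4) with 62 fragments, lay 426819 bp past Dach1, the nearest protein-coding gene.

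Gene lists by function show where the hosts lie. Of all protein-coding genes 2.21% held a high-pileup absent peak. The lists were chosen with earlier results of these data known, so a share above this does not measure enrichment. Splicing and nuclear RNA-binding genes held one in 16 of 44 cases, 46 peaks in all with a median of 76 fragments and a median fold of 3.21, and 23 of the 44 are in the gene table. Beside Luc7l2 these were led by Rbm39 (7 peaks, highest 122 fragments), Rbm25 (6, up to a fold of 9.79), the neuronal splicing regulator Ptbp2 (4, median fold 5.24) and Tra2a (4, median fold 2.82). Hnrnpa1 and Hnrnph1 had 118 and 110 fragments at folds of 1.58 and 1.92.

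Of the myogenic regulators, 8 of 29 genes held 39 peaks. Nfat5 and Celf2 led, followed by Mbnl1, the splicing regulator lost in myotonic dystrophy, with 7 peaks of 56 to 108 fragments. Zfpm2, a GATA cofactor, had 1 of 128 fragments and a fold of 2.77, and the E protein gene Tcf12 had 1 of fold 6.43 beside 31 lower peaks. Of the extracellular matrix and adhesion genes, 8 of 29 held 37 peaks. Among these Fn1 had 3 peaks of up to 153 fragments, Col5a2 had 4 of up to 88 and Ncam1, the neural cell adhesion molecule that marks fusing myoblasts, had 4 of up to 134. Chromatin regulators held 19 in 7 of 34 genes, with Setd5, a protein of the SET family, at 130 fragments and 5.62 and Nsd1, a histone methyltransferase, at up to 10.1.

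Signalling genes were hosts as well. Receptor tyrosine kinases and their ligands had 18 peaks in 4 of 21 genes, of which Angpt1 and Hgf held 16. Hgf, the satellite cell activator, reached 9.74. The insulin, IGF, AKT and mTOR list had 7 in 3 of 24, among them the Pik3r1 peak described above. TGF-beta, activin and BMP signalling had 2 in 2 of 25, in the receptor genes Bmpr1a (60 fragments, 5.34) and Bmpr2 (56, 3.95). Actin assembly and small GTPases had 6 in 2 of 28, of which the kinase gene Rock2 held 5.

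Genes of the RNA machinery that YTHDF2 acts with were also hosts. Deadenylation and RNA decay genes held 9 peaks in 5 of 31, among them Cnot1, the scaffold of the deadenylase complex (2 peaks, up to 4.92), Cnot2 (4, up to 3.91) and Cnot6l (1, 4.13). Of the m6A writers, erasers and readers, 3 of 24 held 5 peaks. The reader Ythdf3 had 2 intron peaks of 68 and 52 fragments at 3.27 and 1.91, the writer subunit Rbm15 had 78 fragments at 3.10, and Hnrnpa2b1 had 141 and 65. Long non-coding RNAs held 9 in 4 of 19 annotated.

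The sarcomere and excitation-contraction list had 4 peaks in 3 of 38 genes, in Atp2a2, the calcium pump of the reticulum (77 fragments, 2.93), the Z-disc protein gene Pdlim5 (70, 3.37) and the calcium channel subunit Cacna2d1 (63, 3.85). Of 25 myotube marker genes, 0 held a high-pileup absent peak, 2 held a lower one and 5 are in the gene table. Of 8 myoblast and reserve cell markers, Hgf and Itga7 did, and of 7 fibroblast markers Col3a1 did. Of 6 adipocyte and endothelial and 5 immune markers, 0 did. With 2.21% of all protein-coding genes holding such a peak, a count of 0 in lists this short carries no information. A peak list gives no level of expression, so the label of myotube could not be checked from these peaks.

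Repeats were more common under the high-pileup peaks in introns. The median share of repeat-masked bases was 49.0% in 885 intron peaks against 36.5% in 5872 of lower pileup, and at least 50% of the bases were masked in 49.0% (45.8 to 52.3) against 40.5% (39.2 to 41.8). Over all placements the medians were 41.3% and 35.6%, and 9.81% in the gene table. Their difference of 5.66 points (0.498 to 10.8) turned to −10.3 (−26.9 to 6.32) with the threshold at a pileup of 90, where exons are 40% of the peaks. Among intron peaks with an input background of 8 to 16 the medians were 54.6% and 36.6%, so in introns the difference was present within that range. Over all placements, with backgrounds held within the quartiles of the set, it was 8.29 points (−2.88 to 19.5), an interval that holds 0. The median GC content was 43.4% in both sets.

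Alternating TG was more common under the high-pileup peaks than under those of lower pileup. On the gene strand TGTGTGTG was in 11.5% (9.78 to 13.6) of the 200-base windows of high-pileup peaks in genes, 8.51% (7.85 to 9.22) of the lower ones and 3.57% (2.75 to 4.62) of the gene table. In introns the shares were 13.3% (11.3 to 15.7) and 8.79% (8.09 to 9.54), and 14.5% (12.2 to 17.1) without Brinp3. Among high-pileup intron peaks with 50 to 59 fragments the share was 12.2% (9.28 to 15.8) of 386. With 60 to 79 fragments it was 11.9% (8.78 to 15.9) of 320, and with 80 to 119 it was 15.8% (10.7 to 22.8) of 139. Only with 120 or more fragments was it higher, 27.5% (16.1 to 42.8) of 40. The complement CACACACA was on the gene strand in 1.56% (0.974 to 2.48) and 1.30% (1.05 to 1.61), so in both sets the TG form lay mostly on the strand of the transcript. Of the other simple words, TTCCTTCC was on the gene strand in 3.66% (2.70 to 4.95) and 2.16% (1.83 to 2.55), 2.14% over all peaks, and CTCTCTCT in 3.85% (2.86 to 5.16) and 2.10% (1.78 to 2.48), 2.11% over all peaks. The intervals overlapped for TTTTTTTT, at 13.3% (11.4 to 15.4) and 10.8% (10.1 to 11.6), for AAAAAAAA, at 5.68% (4.45 to 7.21) and 5.98% (5.43 to 6.59), for GAGAGAGA, at 2.38% (1.63 to 3.47) and 1.64% (1.36 to 1.99), and for GGAAGGAA, at 2.20% (1.48 to 3.25) and 1.55% (1.28 to 1.88). Over all peaks these were in 10.4%, 5.61%, 1.77% and 1.61%. The words were chosen with these sequences in view, and no source used here tells whether the libraries keep strand.

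The m6A consensus was no more common under the high-pileup peaks. GGACT was on the gene strand in 15.1% (13.1 to 17.4) of the windows of high-pileup peaks, 15.4% (14.5 to 16.3) of the lower ones and 17.3% (15.5 to 19.3) of the gene table. Counted over whole peaks it stood at 0.739 and 0.851 sites per kb, a ratio of 0.868 (0.757 to 0.996), and over the windows the ratio was 0.957 (0.817 to 1.12). GGACA was in 15.8% (13.7 to 18) and 16.1% (15.3 to 17.1), and the polyadenylation word AATAAA in 10.3% (8.59 to 12.2) and 11.5% (10.8 to 12.3). Over all peaks on the gene strand, GGACT was in 15.7%, GGACA in 16.4%, AATAAA in 10.8% and TGTGTGTG in 8.03%.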

How the data were processed

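Reads were aligned and peaks called on mm10 by the authors. The submitters' processing notes name Trim Galore, FastQC, Bowtie, Picard, deepTools, HOMER and DiffBind, and the series' design text names MACS; versions are not given in the sources. The deposited peak list gives, per the file headers, the signal (pileup) at each summit, the fold enrichment (a ratio to local input) and −log10 p-values and q-values, which are the authors' scores. No source used here tells how reads with several matches were placed, and the labels word the library steps for DNA.

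All deposited pileup values were whole multiples of 0.9 (tolerance 1e-06), so fragments are pileup over 0.9, and the input background was solved from pileup and fold. Placement on GENCODE release 21 took exons before introns, with an overlap of at least 1 bp. Copies were found with BLAST 2.17.0, and sequences come from the RefSeq GRCm38.p6 assembly, which is mm10. Python 3.11.15, pandas 2.3.3, numpy 2.4.6, scipy 1.17.1, pysam 0.24.0 and matplotlib 3.10.9 were used, and the statistics were tested on simulated data. Shares have Wilson 95% intervals, and folds exact Poisson 95% intervals on the RIP fragments alone. With 1 RIP and 1 input no test between conditions was made, and depth is unknown.

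The members, gene lists and words were chosen with earlier results of these data known. Named peaks are the leading ones by pileup, fold and q-value, by host gene, by placement and by gene list, and those beside the threshold. The leading pseudogene peaks, the highest folds within a placement and secondary peaks of named genes were added after their values were seen. Printed windows are the leading 2 by placement and by fold, of which the second between genes was left out because it touches a RefSeq exon. Some items, among them 1 window and several named genes, are not reported here.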

Additional observations from a re-analysis of the deposited data

How the results depend on the processing

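No paired analysis was possible because there is 1 RIP and 1 input library, and for the same reason no replicate could be left out. Of 97 alternative values 55 stayed within their intervals or within 1.5 times, 41 moved and 1 reversed; the cause of these moves was not tested beyond the change of peaks each setting makes. With the threshold at a pileup of 36 there were 1928 peaks in 919 genes, with 82.4% in introns, 14.3% over exons, a median fold of 3.76, a median background of 12 and 49.5% within 10 kb of another. At a pileup of 90 there were 145 in 91 genes, with 57.2% in introns and 40% over exons. Their median fold was 2.66, their median background 42, and 41.4% lay near another. The difference in masked bases changed sign there, to −10.3 points (−26.9 to 6.32), an interval that holds 0. Keeping folds of 4 or more left 403 in 280 genes, with 83.1% in introns, 14.9% over exons, 1.99% between genes, a median fold of 5.05, a background of 10.0, 25.3% near another and a masked difference of 19.2 points. Keeping q-values of 1e-05 or less gave a median fold of 3.72 and a background of 15. With 1 peak per gene there were 620, with 66.8% in introns, 26.5% over exons, 6.77% between genes and 5.81% near another. Placement by the peak centre gave 80.6% in introns and 15.5% over exons, and placement on protein-coding genes only gave 10.5% over exons and 9.35% between genes. With input backgrounds held within the quartiles of the set, but not matched peak by peak, the GC difference was −0.799 points (−2.14 to 0.542). The GGACT ratio was then 0.729 (0.553 to 0.961). The upper quartile of the set was 23, while the lower-pileup backgrounds ended at 20. Among intron peaks alone the masked difference was 12.5 points. The share near another peak was 40.2% without Brinp3, 40.2% without chromosome 1, 23.5% at 2 kb and 61.2% at 50 kb. Depth is unknown and was not varied.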
